A study of Mus musculus with 2 samples.

Results

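The cells described here are the few stromal-like cells that stood among macrophages in a mouse bone marrow culture. They were selected on measured values. A droplet barcode was kept as a cell when 500 genes and 1000 unique molecular identifiers (UMIs, each tagging 1 captured RNA molecule) were reached and mitochondrial genes held no more than 10% of its UMIs. A kept cell became a member when Sparc, Col1a2 and Col3a1 together gave 5 or more UMIs per 10000. This gave 88 members among 12123 kept cells of the THP library and 85 among 10978 of the vehicle library, 173 of 23101 cells in all. The cultures came from marrow of wild-type 129Sv mice and were grown to day 7 with 50 ng/ml M-CSF and 10% serum. They then received, for 18 h, either 1 µg/ml of a shortened Tamm-Horsfall protein that does not polymerize (THP, uromodulin, a kidney protein found in urine) or the 5% dextrose in which it was dissolved. Cells were lifted with TrypLE for 10 min, cleared of dead cells and passed over a 40 µm filter. The labels do not give the number of mice or dishes. Each group was 1 library, so no difference below has a replicate check, treatment cannot be told apart from library or dish, and no p-value was computed.

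Bone marrow stromal cells are the adherent, non-blood cells of the marrow. They include reticular cells, which feed blood stem cells with Cxcl12, pericyte-like contractile cells, and precursors that can become bone-forming osteoblasts or fat cells. They make the collagen-rich matrix of the marrow, and they sense microbial products and cytokines through Toll-like and interleukin-1 receptors, whose signals pass through the transcription factor NF-kB and switch on chemokines that draw neutrophils and monocytes.

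Members made up 0.726% of kept THP cells (exact binomial 95% interval 0.583 to 0.894%) and 0.774% of kept vehicle cells (0.619 to 0.957%). These intervals overlap, but they cover counting error within 1 library each and do not test a difference. With at least 5 UMIs of Sparc, Col1a2 and Col3a1 required, the shares were 0.709% (THP) and 0.656% (vehicle), the opposite order. The selecting sum had a median of 37.0 UMIs per 10000 in THP members and 73.6 in vehicle members. The lowest THP members were at 6.28, 6.35 and 7.13, and the cells just below the limit were at 4.28, 4.07 and 4.01. In the vehicle library the lowest member was at 5.34 and the highest non-member at 4.97. A single UMI of the 3 genes admitted 12 vehicle members and 2 THP members, all of them shallow. Members with fewer than 5 such UMIs had a median total of 1678 UMIs in the vehicle library and 1398 in the THP library.

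**Figure D1:**
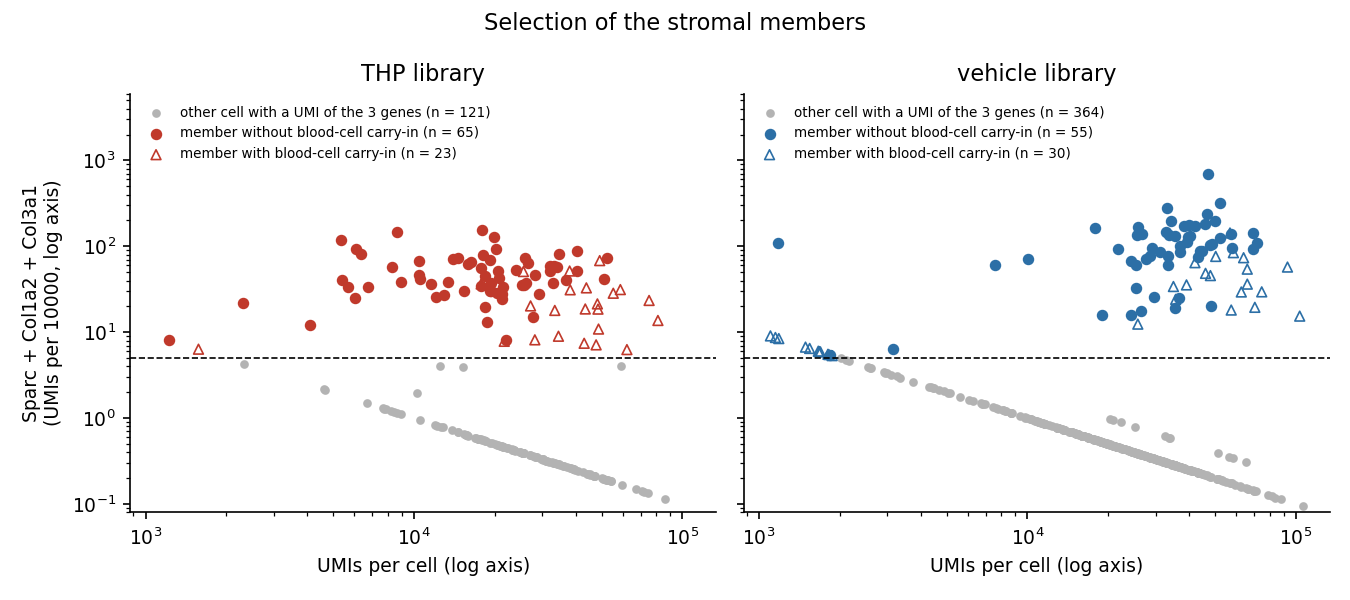
Each point is a kept cell with at least 1 UMI of Sparc, Col1a2 or Col3a1, in the THP library (left) and the vehicle library (right). The x axis is total UMIs per cell and the y axis the summed level of the 3 genes in UMIs per 10000, both logarithmic; the dashed line is the limit of 5. Filled circles are members without blood-cell carry-in and open triangles members with it. In the vehicle library 12 members lie on the lowest diagonal, which marks a single UMI, and most other members lie well above the limit.

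The members carried the RNA of mesenchymal cells. The summed level of 20 stromal marker genes was 11696 CPM (counts per 1000000 UMIs, over the summed UMIs of the members) in THP members and 22355 CPM in vehicle members, against 11.2 CPM or less in the other kept cells. All 20 markers were higher in members than in the other cells of the THP library, and 19 of 20 in the vehicle library, the exception being Thy1, with 1 UMI. Much of that total is Sparc and collagen, which the rule selected, so the contrast with the other cells is a description and no test of the label. Bgn, the proteoglycan biglycan, stood at 1077 CPM in THP members and 1112 CPM in vehicle members and below 1 CPM in the other cells of both libraries. Cald1, the actin-binding protein caldesmon, stood at 1605 and 1361 CPM. Neither is on the selecting list, although genes of the same cells move with it, and neither differed 2-fold between the libraries.

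Markers of more specialised cells differed in level. The 7 osteoblast markers summed to 135 CPM in THP members and 1227 CPM in vehicle members, most of it Ibsp, and to less than 1 CPM in the other cells of each library. In THP members 4 of the 7 were above the other cells and in vehicle members 6. Bglap2 had no UMI in either library and Bglap, the osteocalcin gene of mature osteoblasts, had 0 in THP members and 1 UMI in vehicle members. The 6 reticular markers summed to 178 and 106 CPM, against 8.78 and 13.6 CPM in the other cells, and 3 of 6 reached 20 CPM in each library. Cxcl12 made up most of the THP sum but not of the vehicle sum, and its levels are given below. Among the 6, Adipoq had 0 UMIs in THP members and 1 in vehicle members, and Lepr stood at 12.9 and 11.1 CPM. Endothelial markers summed to 8.87 and 6.86 CPM, with 4 of 9 genes at 0 in THP members and 5 of 9 in vehicle members. Of 6 cartilage markers 4 and 5 were at 0, and the 5 Schwann cell markers summed to 12.9 and 2.61 CPM. Summed over members, markers of the stromal label were thus present together with some osteoblast and reticular markers, while Bglap and Adipoq had at most 1 UMI.

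**Figure D2:**
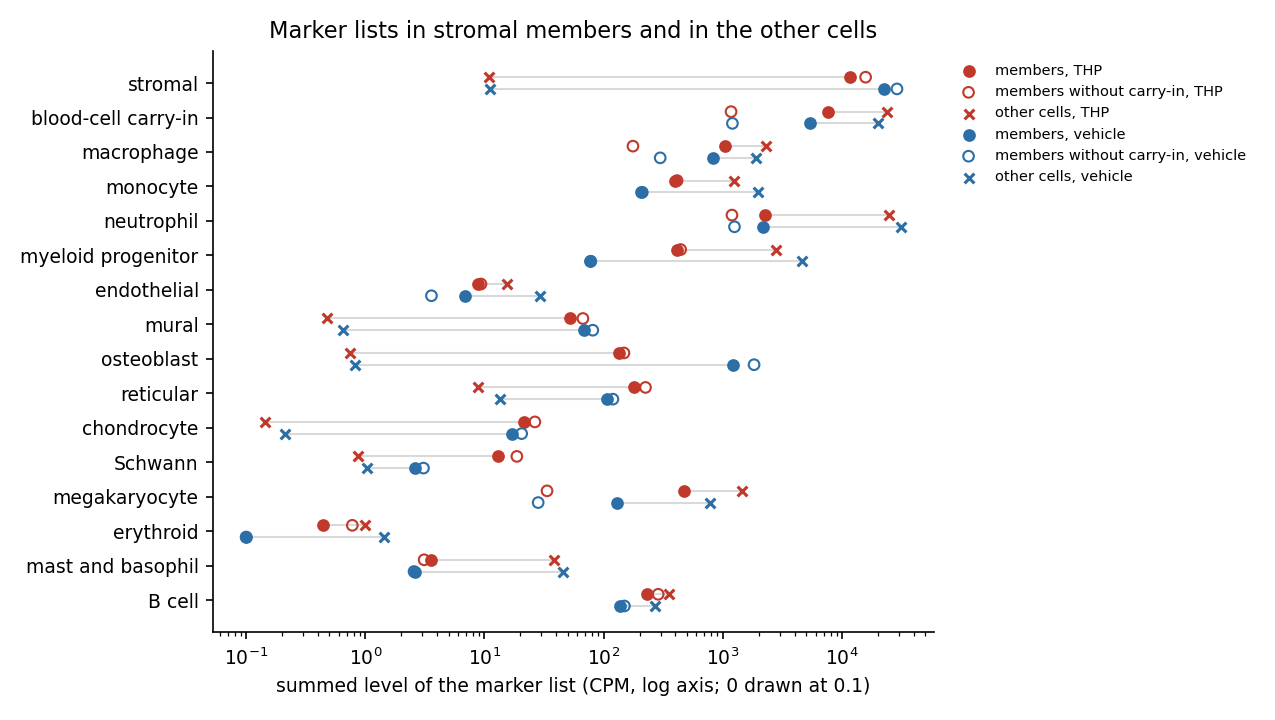
Summed level of each marker list in CPM on a logarithmic axis, with 0 drawn at 0.1. Filled circles are members, open circles members without blood-cell carry-in and crosses the other kept cells, with THP in red and vehicle in blue. Stromal, mural, osteoblast, reticular, chondrocyte and Schwann cell lists lie to the right in members. The lists of blood cells and the endothelial list lie to the right in the other cells.

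RNA of blood cells was present in the members as well. Summed levels of 10 genes that mark blood cells in general, such as Ptprc and Tyrobp, were 7652 CPM in THP members and 5378 CPM in vehicle members, which is 32.3% and 27.1% of the level in the other cells. These genes reached the other cells' median divided by 3 in 23 THP members and 30 vehicle members, called members with carry-in below. A droplet that held a stromal and a blood cell, a cell that had taken up another, and free RNA cannot be told apart here. The same holds for a blood cell that met the rule on a stray UMI of the selecting genes. Members with carry-in had a higher median depth, of 43444 UMIs in the THP library against 19122 in members without it, and 40578 against 35302 in the vehicle library. In the vehicle library they also included shallow cells: their lower quartile was 1721 UMIs, against 26168 in members without carry-in, and 11 of the 30 held fewer than 5 UMIs of the selecting genes. No cell was removed as a doublet. Without these members, 65 THP and 55 vehicle cells remained, and the blood-cell genes fell to 4.94% and 6.05% of the level in the other cells. Other blood-cell lists stayed, some of them higher in the THP library: myeloid progenitor markers summed to 442 CPM in THP and 78.0 CPM in vehicle members without carry-in, monocyte markers to 413 and 211 CPM, and B cell markers to 287 and 149 CPM, while macrophage markers summed to 176 and 298 CPM. Ebf1 of the B cell list and Vcan of the monocyte list are also on the lists of marrow reticular and matrix genes used below. The B cell and monocyte sums may thus include stromal RNA. The part of blood-cell RNA in the differences below was not tested. None of the 42 barcodes found in both libraries belonged to a member.

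Members of the vehicle library held more UMIs. The median was 35643 UMIs and 6025 genes per vehicle member and 21265 UMIs and 4554 genes per THP member, while the other cells had medians of 17166 and 16044 UMIs. Mitochondrial genes held a median of 3.14% of UMIs in THP members and 3.53% in vehicle members. Summed over members, the THP library gave 2254972 UMIs and the vehicle library 3060454. The part of this gap in depth, and of the carry-in, in the differences below was not tested. All intervals below are exact 95% intervals of these counts and cover counting error only.

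Genes were compared on the log2(CPM + 1) scale, which understates the change of genes near 1 CPM. A gene counted as higher or lower when it reached 20 CPM in at least 1 library and differed at least 2-fold on that scale. Of 6553 genes at 20 CPM, 160 (2.44%) were higher in THP members and 321 (4.9%) were lower. Without the members with carry-in, 249 (3.87%) of 6431 genes were higher and 433 (6.73%) lower, and the 2 sets of calls shared 110 higher and 249 lower genes. In the other kept cells 1.06% of genes were higher and 2.9% lower by the same rule. Higher genes were 33.3% of those past the rule, a share that moved to 47.8% under TMM scaling and 48.7% under RLE scaling, and the median of all genes moved from -0.08 to 0.03 and 0.04. The log2 ratio fell with transcript length: its median was 0.25 in the tenth of genes with the shortest transcripts and -0.49 in the tenth with the longest, and Spearman's rho across 6549 genes, which are not independent, was -0.47. After the length trend was removed, higher genes were 50.7% of those past the rule.

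**Figure D3:**
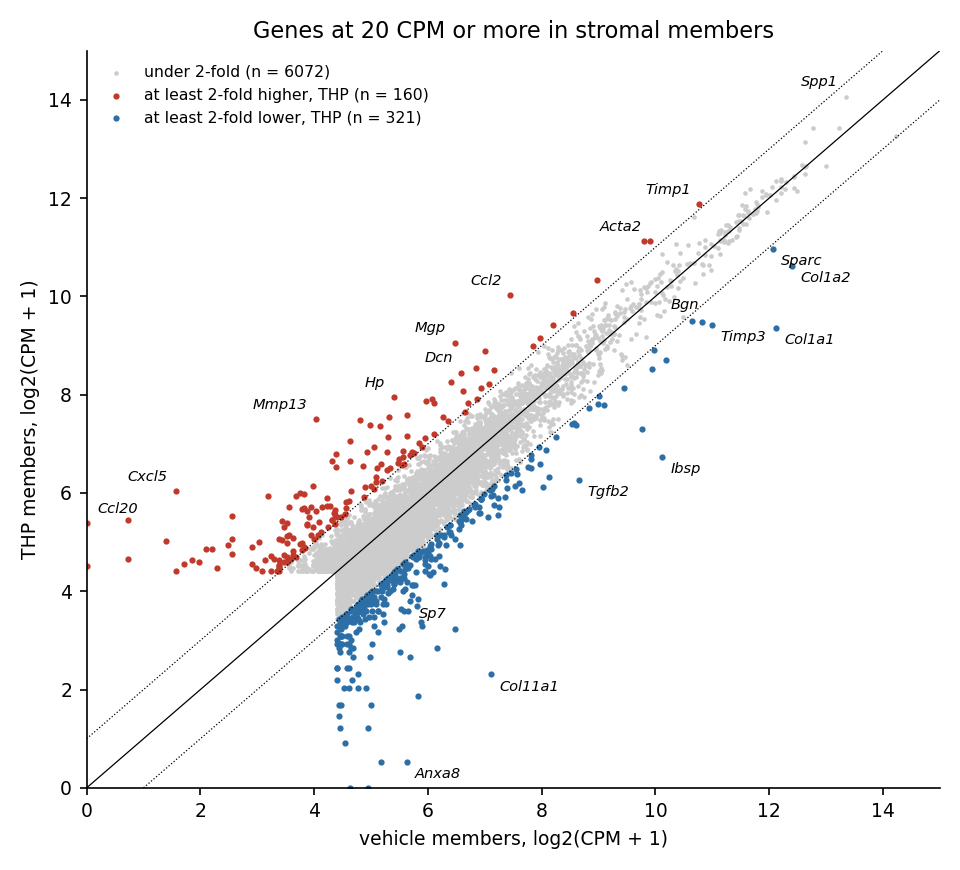
Each point is 1 of the 6553 genes that reached 20 CPM in members of at least 1 library, with the vehicle level on the x axis and the THP level on the y axis, both as log2(CPM + 1). Dotted lines mark 2-fold differences. Red points are the 160 higher and blue points the 321 lower genes, and chemokines (Ccl2, Cxcl5, Ccl20) lie opposite to bone and collagen genes (Ibsp, Col11a1, Col1a1).

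Cytokine and chemokine genes were the list with the highest median. Of its 17 genes at 20 CPM, 15 (88.2%) were higher in THP members and none lower, against 2.44% higher over all genes. The median log2 ratio was 1.83, against -0.08 over all genes. Without the members with carry-in, 13 of 14 were higher, against 3.87% over all genes, with a median of 2.92. The same list had a median of 0.96 in the other kept cells, whose difference from the members was not tested. The list was drawn up with earlier results of these data known, so its count describes the members and is no independent evidence of its direction.

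Ccl2, the main chemokine for monocytes, stood at 1039 CPM (997 to 1081) in THP members and 173 CPM (158 to 188) in vehicle members, a 6.01-fold difference (5.46 to 6.62). It was not confined to 1 cell, as the THP cell with most Ccl2 held 15.5% of its UMIs, but it was uneven. On the per-cell scale of the selecting sum, THP members had a median of 3.61, an upper quartile of 12.2 and a highest value of 189.83. Vehicle members had a median of 0.139, an upper quartile of 0.821 and a highest value of 11.1. At least 1 Ccl2 UMI was found in 81.8% of THP members and 50.6% of vehicle members. After each cell was thinned to 2000 UMIs, which left out 2 THP and 13 vehicle members, the shares were 52.3% and 15.3%. Macrophages make Ccl2 too, and 63.1% and 46.8% of the other cells held a UMI of it. In members without carry-in, Ccl2 was at 1130 CPM with THP and 57.4 CPM with vehicle, while the other cells were at 926 and 476 CPM. Summed over these members, the THP level thus lay above that of the surrounding cells, and the vehicle level well below it. The THP sum was uneven. On the same per-cell scale, these THP members had a median of 3.30 and an upper quartile of 12.2, while the highest cells stood at 189.83 and 101.82. Whether a typical THP member lay above the surrounding cells was not tested.

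Ccl7, a neighbour of Ccl2 with a similar receptor use, stood at 192 CPM (174 to 211) against 48.7 CPM (41.2 to 57.2), and at 230 against 16.4 CPM without the members with carry-in. Cxcl5, which draws neutrophils, stood at 64.7 CPM (54.7 to 76.1) in THP members and 1.96 CPM in vehicle members, from 146 and 6 UMIs, a 33.0-fold difference with a wide interval (14.8 to 91.5). Its UMIs lay in 16 THP and 4 vehicle members, and the other cells were at 0.292 and 0.147 CPM. Cxcl1 stood at 62.1 against 13.1 CPM. Cxcl5 and Lif were close to 0 in the other cells, while Ccl7 and Cxcl1 were not. Lif, a cytokine of the interleukin-6 family, stood at 38.6 against 10.1 CPM in members and at 0.0494 and 0.0293 CPM in the other cells.

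Cxcl12, the reticular chemokine that holds blood stem cells in the marrow, was higher as well. It stood at 114 CPM (100.04 to 128) in THP members and 37.9 CPM (31.3 to 45.5) in vehicle members, and at or below 0.137 CPM in the other cells. A Cxcl12 UMI was found in 69.3% of THP and 49.4% of vehicle members, or 24.4% and 6.94% after thinning, against 0.166% and 0.257% of the other cells. Cxcl10, an interferon-induced chemokine, stood at 27.9 against 3.59 CPM.

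A few chemokine values rested on 1 cell. Ccl20, which draws dendritic cells and some lymphocytes, had 92 UMIs in THP members (40.8 CPM) and none in vehicle members, at least 41.6-fold higher against a floor of 3 UMIs in the vehicle members. It was found in 11 THP cells, but 1 of them held 64.1% of the UMIs. Ccl5 had 96 UMIs in THP members and 2 in vehicle members, a ratio of 65.2 (17.6 to 546), and 1 cell held 70.8% of the THP UMIs. Tnfsf15, a TNF family ligand, had 89.1% of its 46 THP UMIs in 1 cell. Cxcl2 (166 against 30.7 CPM), Ccl3, Ccl4 and Tnf were also past the rule, but each was higher in the other cells than in members of the same library. Ccl3, Ccl4 and Tnf fell below 20 CPM without the members with carry-in, and Cxcl2 stood at 39.7 against 2.05 CPM there.

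NF-kB targets and feedback genes followed the same direction. Of 19 genes at 20 CPM, 10 (52.6%) were higher, against 2.44% over all genes, none was lower, and the median was 1.12. The other kept cells had a median of 1.37 for this list, and the difference between the medians was not tested. Without the members with carry-in, 12 of 20 were higher, against 3.87% over all genes, with a median of 1.21. Nfkbia, the inhibitor that NF-kB induces to end its own signal, stood at 375 CPM (350 to 401) in THP members and 115 CPM (103 to 127) in vehicle members. The other cells stood at 337 and 115 CPM, close to the members. In members without carry-in, Nfkbia was at 441 against 86.7 CPM, a larger difference. Nfkbie, a related inhibitor, stood at 63.0 against 12.4 CPM, and Traf1, an adaptor of TNF receptors, at 32.4 against 4.90 CPM. Icam1, an adhesion molecule for leukocytes, stood at 51.0 against 13.1 CPM in members and at 21.0 against 3.59 CPM without carry-in. Tnfaip3, another feedback inhibitor, was at 21.7 against 14.7 CPM and did not pass. Among the 10 higher genes, the log2 ratios of Nfkbia, Nfkbie, Icam1, Traf1 and Tnip1 were larger without carry-in. Those of Tnfaip2, Relb, Bcl3, Birc3 and Sod2 were smaller, for example 1.26 in place of 1.59 for Birc3. The part of blood-cell RNA in these shifts was not tested.

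The bases before the start of some of these genes are printed to show where an NF-kB consensus match lies. They come from RefSeq on GRCm38.p6 and run for the 250 bases before the start, 5′ to 3′ on the gene's strand. Capitals mark the match, which was searched on both strands.
Nfkbia, chr12:55492648-55492897, minus strand: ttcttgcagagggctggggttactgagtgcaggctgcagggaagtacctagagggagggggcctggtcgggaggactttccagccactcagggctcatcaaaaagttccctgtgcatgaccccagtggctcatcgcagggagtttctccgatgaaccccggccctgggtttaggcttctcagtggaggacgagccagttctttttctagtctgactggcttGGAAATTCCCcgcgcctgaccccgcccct
Nfkbie, chr17:45555450-45555699, plus strand: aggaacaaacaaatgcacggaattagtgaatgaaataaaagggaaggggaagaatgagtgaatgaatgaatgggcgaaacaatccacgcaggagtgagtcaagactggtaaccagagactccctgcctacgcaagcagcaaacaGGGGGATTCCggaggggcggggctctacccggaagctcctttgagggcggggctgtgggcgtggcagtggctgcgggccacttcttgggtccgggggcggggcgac
Ccl20, chr1:83116516-83116765, plus strand: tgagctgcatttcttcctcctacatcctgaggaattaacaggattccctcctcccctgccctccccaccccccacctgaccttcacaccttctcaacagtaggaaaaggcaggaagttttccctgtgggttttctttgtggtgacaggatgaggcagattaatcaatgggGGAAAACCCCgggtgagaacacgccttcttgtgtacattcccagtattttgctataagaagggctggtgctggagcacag
Lif, chr11:4257318-4257567, plus strand: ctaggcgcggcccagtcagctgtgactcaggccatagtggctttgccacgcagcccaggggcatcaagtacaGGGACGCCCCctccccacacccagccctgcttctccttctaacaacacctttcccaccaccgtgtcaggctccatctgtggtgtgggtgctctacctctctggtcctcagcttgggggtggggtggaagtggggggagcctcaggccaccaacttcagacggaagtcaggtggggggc

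The match begins at position -29 for Nfkbia, -106 for Nfkbie, -80 for Ccl20 and -178 for Lif, counted from the start. These 4 were taken because they had a match. A match was found in 2382 of 32851 such windows (7.25%), in 7 of the 22 windows available for 35 named higher genes, and in 5 of the 24 available for 37 named lower genes. A match is a string of letters in a window and was not set against any binding data.

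Acute phase and complement genes were higher in 6 of 10 genes (60%, against 2.44% over all genes), with none lower and a median of 1.71. Serping1, the inhibitor of the first complement component, stood at 233 CPM (213 to 254) in THP members and 61.8 CPM (53.3 to 71.2) in vehicle members, and below 0.1 CPM in the other cells. Serpina3n, a protease inhibitor, stood at 31.0 against 7.19 CPM, its relative Serpina3g at 60.8 against 11.8 CPM, and the pattern-recognition protein Ptx3 at 141 against 48.4 CPM. Serpina3 genes are close copies, so their counts may be split. Hp, haptoglobin, stood at 247 against 41.2 CPM, and at 344 against 45.6 CPM without carry-in. With every member weighted equally its log2 ratio was 0.91, below the limit, and the other cells held 230 and 186 CPM of it. Saa3, the serum amyloid gene of macrophages, stood at 31.5 against 1.63 CPM but was higher in the other THP cells (127 CPM) and fell below 20 CPM without carry-in.

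Of 11 receptors and adaptors of the Toll, interleukin-1 and TNF families, 3 (27.3%) were higher, against 2.44% over all genes, and none lower. The median was 0.45, and the higher genes were Cd14, Tlr2 and Irak3. All 3 were higher in the other cells than in members, and without carry-in Tlr2 and Irak3 fell below 20 CPM, while Cd14 stood at 58.4 against 11.8 CPM. Il1r1, the interleukin-1 receptor, stood at 20.4 and 20.3 CPM. Interferon-stimulated genes had 2 of 14 higher (14.3%, against 2.44% over all genes), Ifi27l2a and Ifitm1, and a median of 0.14. Ifi27l2a turned without the members with carry-in, with a log2 ratio of 1.20 in all members and -0.22 there. All 14 antigen presentation genes at 20 CPM had a positive log2 ratio, with a median of 0.61, and none reached 2-fold, for example B2m at 1859 against 1109 CPM and H2-K1 at 797 against 473 CPM. Without carry-in the median was 0.73 and 2 of 14 were higher, H2-Aa (1.07) and Cd74 (1.40), against 3.87% over all genes.

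**Figure D4:**
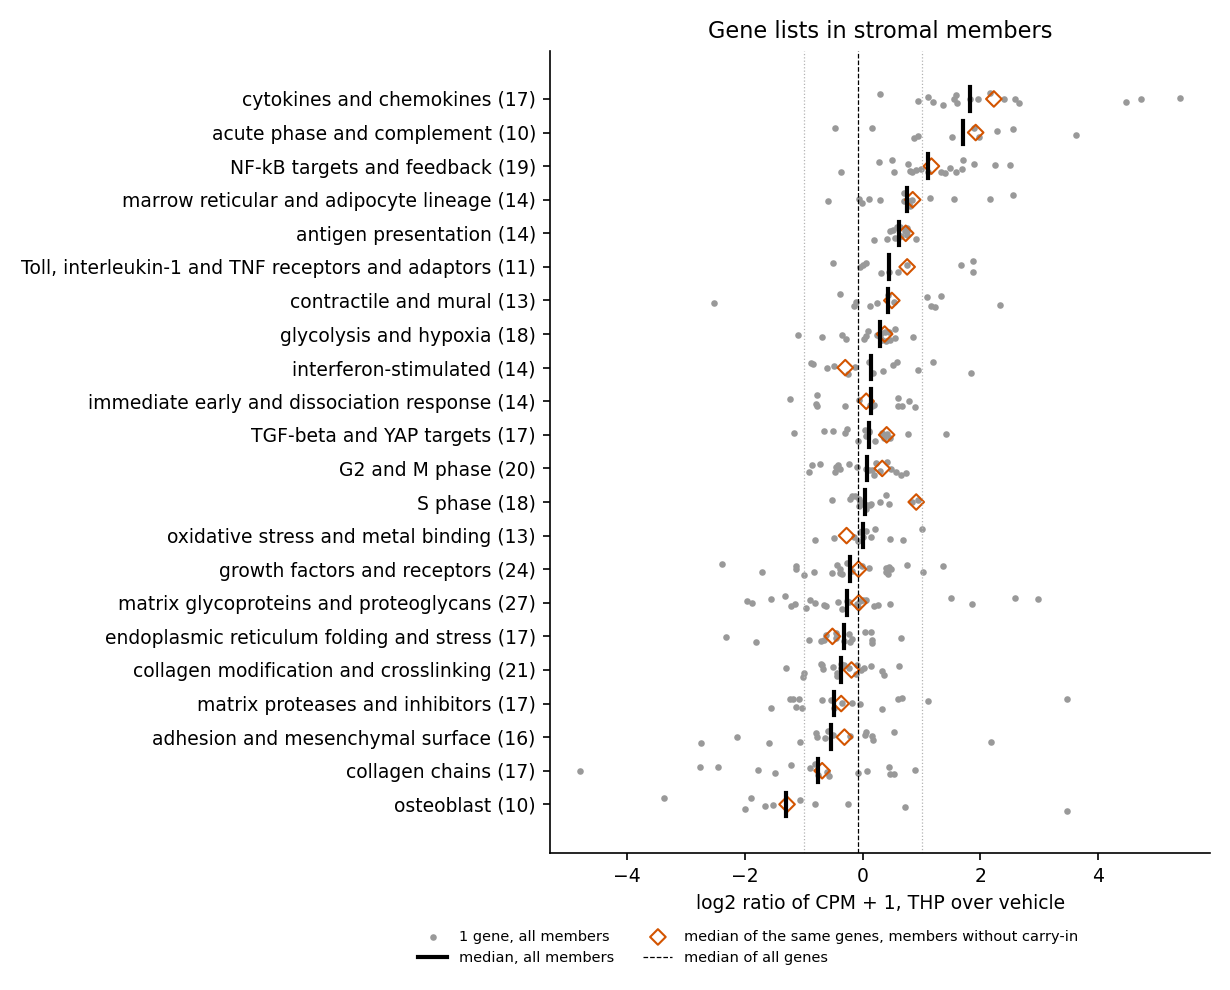
Log2 ratio of CPM + 1, THP over vehicle, for the genes of 22 lists at 20 CPM (number in parentheses). Grey points are genes in all members, black bars their medians, and orange diamonds the medians of the same genes without the members with carry-in; dotted lines mark 2-fold and the dashed line the median of all genes. Cytokines and chemokines lie farthest to the right (1.83) and osteoblast genes farthest to the left (-1.30), and the S phase diamond lies to the right of its bar.

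Bone-forming genes were lower in THP members. Of 10 osteoblast genes at 20 CPM, 6 (60%) were lower, against 4.9% over all genes, and 1 was higher, with a median of -1.30. Without carry-in 7 of 11 were lower, against 6.73% over all genes. Ibsp, bone sialoprotein of mineralizing matrix, stood at 106 CPM (93.0 to 120) in THP members and 1107 CPM (1070 to 1145) in vehicle members, a 10.4-fold difference. A single vehicle cell held 51.7% of the vehicle UMIs and a single THP cell 36.8% of the THP UMIs. With the top cell of each library left out, the log2 ratio was -2.98 in place of -3.37. Ibsp was found in 9 of 88 THP members and 36 of 85 vehicle members, or in 8.14% and 26.4% after thinning, and in 0.0166% and 0.174% of the other cells. The gene was thus found in a minority of members of either library, and 1 cell weighed heavily in each.

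Sp7, osterix, the transcription factor that commits cells to bone, stood at 12.9 CPM (8.61 to 18.5) against 50.6 CPM (43.0 to 59.3), and no vehicle cell held more than 7.74% of its UMIs. Alpl, the alkaline phosphatase of mineralizing cells, stood at 13.3 against 55.9 CPM. Tnfrsf11b, osteoprotegerin, the decoy that restrains bone-resorbing osteoclasts, stood at 19.5 against 63.7 CPM. Runx2, the early bone regulator, stood at 31.0 against 54.9 CPM and did not pass. The gene of the list that was higher was Mmp13, collagenase 3, at 181 CPM (164 to 199) in THP members and 15.4 CPM (11.3 to 20.4) in vehicle members, an 11.8-fold difference (8.70 to 16.3). Mmp13 was found in 38 THP and 10 vehicle members, or 26.7% and 4.17% after thinning, against 4.92% and 4.39% of the other cells.

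The bases before Mmp13 and Ibsp are shown because these 2 osteoblast genes lay at opposite ends of the comparison. Source, build and orientation are as above, and capitals mark a match to TGTGGT, the core recognized by RUNX factors, on either strand.
Mmp13, chr9:7272264-7272513, plus strand: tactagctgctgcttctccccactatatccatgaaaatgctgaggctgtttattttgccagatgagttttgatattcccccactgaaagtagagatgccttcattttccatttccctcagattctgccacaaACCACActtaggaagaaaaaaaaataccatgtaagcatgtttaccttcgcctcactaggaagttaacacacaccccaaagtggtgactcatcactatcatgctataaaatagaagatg
Ibsp, chr5:104299037-104299286, plus strand: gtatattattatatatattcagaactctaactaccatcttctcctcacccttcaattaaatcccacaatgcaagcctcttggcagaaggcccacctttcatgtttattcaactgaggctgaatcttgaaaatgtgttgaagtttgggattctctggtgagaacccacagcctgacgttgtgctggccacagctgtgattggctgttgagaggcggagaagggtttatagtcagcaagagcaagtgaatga

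Mmp13 has the match at position -118 and Ibsp has none in this window. The core occurs in 4614 of the 32851 windows. No printed match overlaps a match to the other motif.

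When the members with any Ibsp UMI were left out, 79 THP and 49 vehicle cells remained, an alternative chosen after the data were seen. Ibsp itself differed between the libraries and was found in fewer cells after thinning, so this drops unlike parts of the libraries, and the values are a description from which no stability is read. Several lower genes missed the limit in that subset: the log2 ratio of Sp7 was -0.63 in place of -1.90, that of Nt5e -0.44 in place of -2.74, and that of Cthrc1 -0.40 in place of -1.88. Others were past it, with Col11a1 at -4.41, Col5a1 at -1.75, Tgfb2 at -1.28 and Timp3 at -1.04. Among the higher genes, Ccl2 stood at 2.03, Mmp13 at 4.01, Mgp at 1.61 and Dcn at 1.49 in that subset. Higher genes were 18.5% of those past the rule there. Acta2 (0.77) and Tagln (0.65) fell below the limit.

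Several collagen chains were lower, a comparison that the selection touched. Sparc, Col1a2 and Col3a1 chose the members, so their values are a description: Sparc stood at 2012 against 4296 CPM, Col1a2 at 1577 against 5405 CPM and Col3a1 at 364 against 386 CPM. Col1a1 moves with them and stood at 659 against 4476 CPM. Of 17 collagen chains at 20 CPM, 6 (35.3%) were lower, against 4.9% over all genes. None was higher and 11 did not pass, and 5 of the 17 had a positive ratio. The 17 include Col1a1, Col1a2 and Col3a1 and the 6 include Col1a1 and Col1a2, so the count is a description too. The other lower chains were Col5a1, Col5a2, Col11a1 and Col15a1. The minor chains of type I fibrils were among the lower ones: Col5a1 stood at 156 CPM (140 to 173) against 866 CPM (833 to 899), Col5a2 at 416 against 1171 CPM, and Col11a1 at 3.99 CPM (1.83 to 7.58) against 138 CPM (125 to 151). Col11a1 was found in 5 THP and 45 vehicle members. Col4a1, a chain of basement membrane, stood at 270 against 195 CPM and was higher past the limit without carry-in.

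Of 21 genes for enzymes and chaperones that finish collagen, 2 (9.52%, against 4.9% over all genes) were lower, Lox and P4ha1. The median was -0.36. Lox, which crosslinks collagen and elastin, stood at 221 CPM (202 to 241) against 547 CPM (521 to 574). P4ha1, a prolyl hydroxylase, stood at 122 against 248 CPM, just past the limit, and missed it under TMM scaling. Serpinh1, the collagen chaperone, stood at 599 against 812 CPM and did not pass.

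Other matrix genes differed in both directions. Of 27 glycoproteins and proteoglycans, 4 (14.8%) were higher and 6 (22.2%) lower, against 2.44% and 4.9% over all genes. Among the higher ones were Mgp, matrix Gla protein, an inhibitor of mineral deposition, and Dcn, decorin, a proteoglycan that binds collagen fibrils. Mgp stood at 531 CPM (502 to 562) in THP members and 87.6 CPM (77.4 to 98.7) in vehicle members. It was found in 47.7% and 30.6% of members, or 32.6% and 8.33% after thinning, and in 0.158% of the other THP cells. A UMI of it was found in 0 of 10893 other vehicle cells, which allows a share of cells with a UMI at this depth of up to 0.0275% (a floor of 3 cells, counting error only). Dcn stood at 348 CPM (324 to 373) against 94.8 CPM (84.2 to 106), and no cell held more than 8.97% of its UMIs in a library. Lum, a relative of Dcn, stood at 23.9 against 7.84 CPM. Mfap5, a microfibril protein, stood at 45.2 against 4.90 CPM, but 1 cell held 83.3% of its THP UMIs, and without the top cells its log2 ratio was 0.89.

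The lower matrix genes included Fn1, fibronectin, at 723 against 1599 CPM, Thbs2 at 47.0 against 119 CPM, Fbln2 at 166 against 389 CPM, and Cthrc1, a collagen-associated gene of matrix-making fibroblasts, at 11.5 against 45.1 CPM. Fn1, Thbs2 and Fbln2 have long transcripts, and their log2 ratios were -0.65, -0.99 and -0.93 once the length trend was removed, below the limit. Ogn and Fmod, both small proteoglycans, stood at 15.5 against 47.7 CPM and 4.43 against 20.3 CPM. In this list the higher and the lower genes thus both included small proteoglycans.

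Matrix proteases and their inhibitors had 2 of 17 genes higher (11.8%) and 6 lower (35.3%), against 2.44% and 4.9% over all genes. Without carry-in 2 of 16 were higher and 3 lower, against 3.87% and 6.73% over all genes. Besides Mmp13, Timp1, an inhibitor of metalloproteases, was higher, at 3763 CPM (3683 to 3844) against 1742 CPM (1696 to 1790), with 86 of 88 THP members holding a UMI. Its log2 ratio of 1.11 became 0.86 after removal of the length trend. Timp3, the matrix-bound relative, was lower, at 687 CPM (653 to 722) against 2030 CPM (1980 to 2081), in 75 THP and 68 vehicle members. The inhibitors Timp1 and Timp3 thus lay on opposite sides. Mmp2, a gelatinase, and Serpinf1, an inhibitor of vessel growth, stood at 42.6 against 94.8 CPM and 224 against 510 CPM. Without carry-in Mmp2 narrowly missed the limit, at 60.7 against 122 CPM.

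**Figure D5:**
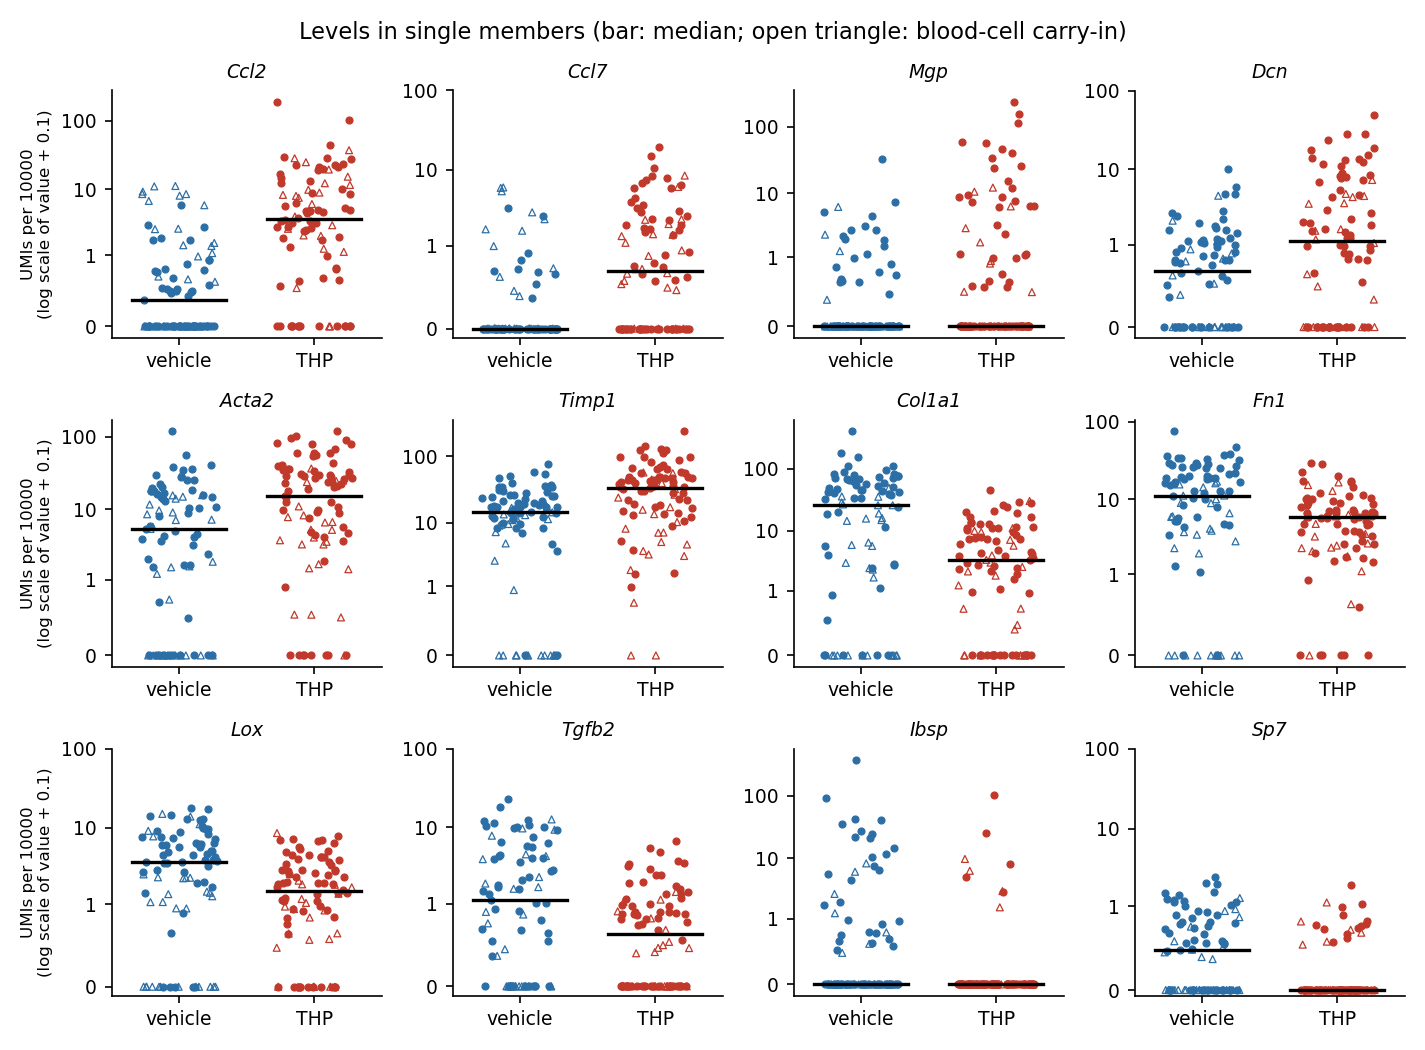
Level of 12 genes in single members, as UMIs per 10000 on a logarithmic scale of the value + 0.1, for vehicle (blue, 85 cells) and THP (red, 88 cells). Bars are medians, filled circles members without blood-cell carry-in and open triangles members with it. Ccl2, Dcn, Acta2 and Timp1 are shifted upward over many THP members, Col1a1, Fn1, Lox and Tgfb2 downward, and Ibsp is at 0 in most members of each library.

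Contractile genes were higher in 5 of 13 genes (38.5%) and lower in 1 (7.69%), against 2.44% and 4.9% over all genes. Acta2, smooth muscle actin, stood at 2236 CPM (2174 to 2298) in THP members and 953 CPM (919 to 989) in vehicle members, and Tagln at 2225 against 888 CPM. Acta2 was found in 89.8% and 74.1% of members, or 77.9% and 62.5% after thinning, and in 4.91% and 4.20% of the other cells. Myl9, Tpm2 and Actg2 were the other higher genes, with Actg2 at 99.3 against 19.0 CPM. Cspg4, the NG2 proteoglycan of pericytes, was lower, at 9.31 against 58.2 CPM. Without the members among the top 5% of cells by UMIs, which leaves 76 THP and 57 vehicle members, the log2 ratios of Acta2 and Tagln were 0.79 and 0.80, below the limit.

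Growth factor genes had 2 of 24 higher (8.33%) and 4 lower (16.7%), against 2.44% and 4.9% over all genes. Tgfb2, a ligand that promotes matrix synthesis, stood at 76.3 CPM (65.3 to 88.6) against 404 CPM (382 to 427), a 5.30-fold difference. It was found in 58.0% and 69.4% of members, or 17.4% and 33.3% after thinning. Pdgfc, a ligand for stromal cells, stood at 19.1 against 64.7 CPM. Igfbp7, a secreted binder of insulin-like growth factors, was higher, at 1294 CPM (1247 to 1341) against 505 CPM (480 to 530). The targets of TGF-beta and YAP had 1 of 17 higher (Id1) and 1 lower (Bambi), 5.88% each, against 2.44% and 4.9% over all genes. Their median was 0.11, and 11 of the 17 had a positive ratio. Without carry-in the median was 0.41, against -0.06 over all genes, with Ctgf and Id1 higher and Bambi lower among 16.

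Among marrow reticular and adipocyte genes, 4 of 14 (28.6%, against 2.44% over all genes) were higher and none lower: Cxcl12, Hp, Igfbp5 and Fabp4. Igfbp5 stood at 51.9 against 10.8 CPM, but its log2 ratio of 2.17 became 0.86 without the members with carry-in. Fabp4, a fatty acid carrier of fat cells and macrophages, stood at 97.1 against 43.5 CPM in all members and at 23.4 against 31.3 CPM without carry-in, the opposite direction. Kitl, stem cell factor, stood at 26.2 against 24.2 CPM and did not pass.

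Surface and adhesion genes had 4 of 16 lower (25%) and 1 higher (6.25%), against 4.9% and 2.44% over all genes. Nt5e, CD73 of mesenchymal cells, had 7 UMIs in THP members and 81 in vehicle members, 26.5 CPM (21.0 to 32.9) in the latter, an 8.53-fold difference (3.96 to 21.9). Ncam1, a neural cell adhesion molecule also found on marrow stroma, stood at 66.1 against 202 CPM, and Itga11, a collagen receptor subunit, at 4.43 against 22.9 CPM. Itga1, another collagen receptor subunit, was higher, at 70.1 CPM (59.6 to 81.9) against 14.7 CPM (10.7 to 19.7). The 2 collagen receptor subunits thus differed in opposite directions.

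Outside the lists, the named genes with the lowest ratios were nearly absent from THP members. Anxa8, an annexin, had 1 UMI in THP members and 148 in vehicle members (48.4 CPM), a ratio with a wide interval (19.3 to 4336). Crabp2, which carries retinoic acid to the nucleus, stood at 2.66 against 55.5 CPM, and Ptgis, prostacyclin synthase, had 0 and 91 UMIs, at least 22.4-fold lower against a floor of 3 UMIs in the THP members. Aldh1l2, a mitochondrial folate enzyme, stood at 8.43 against 88.2 CPM, in 13 THP and 46 vehicle members. Trib3 and Chac1, targets of the amino acid stress response, stood at 5.32 against 30.7 CPM and 6.21 against 24.2 CPM. They were the 2 lower genes among 17 of endoplasmic reticulum folding and stress (11.8%, against 4.9% over all genes). Atf4, the factor of that response, stood at 181 against 175 CPM. Insc, Slc13a5, Tnn, Dynap, Ndnf and Cdh13 were also among the 12 lowest. Ptprz1 was too, but 1 vehicle cell held 88.4% of its UMIs. Among the highest, Dpep1, a membrane dipeptidase, stood at 23.9 against 2.61 CPM in 23 THP and 6 vehicle members, Heyl, a Notch target, at 22.6 against 2.29 CPM, and Apol7c had 49 UMIs in 2 THP members.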

How the data were processed

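Droplet libraries of poly(A) RNA were analysed from 1 THP and 1 vehicle culture. The authors deposited raw counts of UMIs per gene and barcode, and per the file headers these come from software version 3.1.0 in format version 2. The submitters' processing notes name Cell Ranger, STAR, bcl2fastq and mm10, without versions. The labels do not say which transcript end was captured. Levels of different genes were set side by side only to say which genes made up most of a marker sum.

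UMIs were summed over the members of each library and divided by their total to give CPM (Python 3.11.15, numpy 2.4.6, scipy 1.17.1, pandas 2.3.3). With 1 library per group no model was fitted and no p-value was computed. TMM and RLE factors came from edgeR 4.0.16. Transcript lengths came from GENCODE for GRCm38, found for 99.6% of genes. The step that picks genes past the limits was tested on simulated data. No doublet caller was run. The members, the 22 gene lists, the 16 marker lists and the limits were chosen with earlier results of these data known. The genes named were the rule genes and Col1a1, the 12 highest and 12 lowest ratios among genes past the limits that were at least as high in members as in other cells (Col genes apart), up to 4 genes of each list with the largest ratio, and marker genes. Other list members (such as Dcn, Timp1, Fn1 and Runx2) were named after their values were seen. Where 2 identifiers share a symbol (Aldoa), the one with most UMIs was used. Mx2 was not matched. The promoter windows came from a RefSeq table. Alternatives covered scaling, limits, weights per cell, the choice of members, other cells' RNA, the top 5% of cells by UMIs and transcript length; 3 were added after the data were seen.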

Additional observations from a re-analysis of the deposited data

Results flagged for a closer look

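Itga1 differed in opposite directions in the stromal members and in the other kept cells, which drew attention to it. Its log2 ratio, THP over vehicle, was 2.18 in members (70.1 against 14.7 CPM) and -1.12 in the other cells (26.9 against 59.4 CPM). Each side is 1 library against 1 library, and the difference between the ratios was not tested. In members without blood-cell carry-in the ratio was 2.12.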

How the results depend on the processing

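Counts of genes past the limits moved with the limits. In place of 160 higher and 321 lower genes, a level limit of 50 CPM gave 86 and 137, no level limit 569 and 1074, a 1.5-fold limit 482 and 1133, and equal weight per cell 243 and 708. Without the members with carry-in 249 genes were higher, and 251 when at least 5 UMIs of the 3 selecting genes were required as well. Without members holding Ibsp 98 genes were higher. Subtraction of other cells' RNA gave 517 lower genes and the length correction 173. The share of members without carry-in was 0.536% (THP) and 0.501% (vehicle). Of 104 named genes 73 were past the limits, and 68 of these kept their direction under all 18 alternatives. Direction could not turn with the 50 CPM limit, no level limit, the 1.5-fold limit, or 5 added to CPM in place of 1. No level limit and the 1.5-fold limit only loosen the rule, so all 73 had to pass there. Of the 73, the number still past the limits was 40 without members holding Ibsp, 42 at 50 CPM, 56 with equal weight per cell and with each gene's top cell left out, 58 without the top 5% of cells, and 64 to 73 under the rest. Signs turned without carry-in members for Fabp4 (-0.41, also -0.41 with at least 5 such UMIs) and Ifi27l2a (-0.22 and -0.23), without the top 5% of cells by UMIs for Ptprz1 (1.27), and without members holding Ibsp for Fabp4 (-0.82), Ptprz1 (1.79), Bambi (0.47) and Dynap (0.53); the cause was not tested. The number of members, 88 and 85, limits what can be seen. No paired analysis was possible because each group is 1 library.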

Other observations

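Genes of cell division depended on which members were counted. Of 18 S phase genes at 20 CPM none differed 2-fold over all members, with a median log2 ratio of 0.03. Without the members with blood-cell carry-in, 6 of 16 were higher in THP members, against 3.87% over all genes, with a median of 0.94. The 6 were Tyms, Rrm2, Gins2, Tk1, Fen1 and Hells. Tk1, a thymidine kinase, stood at 69.3 against 22.6 CPM there and at 77.6 against 43.1 CPM over all members. Of 19 G2 and M phase genes, 3 were higher without carry-in (Cdk1, Birc5 and Nusap1), against 3.87% over all genes. In the other kept cells the medians of the lists were -0.35 and -0.23.

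Metallothionein Mt2 stood at 200 against 99.0 CPM in members, and Mt1 at 502 against 312 CPM. Spp1, osteopontin, stood at 17181 against 10449 CPM, a 1.64-fold difference below the limit, and at 3708 against 2678 CPM in the other cells.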
